A study of Mus musculus with 4 samples.

Results

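A set of 9 genes that restrain cell division was followed in adult bone marrow mesenchymal stromal cells (MSCs), the cells that line the niche of haematopoietic stem cells. They are the 3 genes of the CIP/KIP family (Cdkn1a, Cdkn1b and Cdkn1c), the 4 genes of the INK4 family (Cdkn2a, Cdkn2b, Cdkn2c and Cdkn2d) and the tumour suppressor genes Trp53 and Rb1. They were chosen by symbol, and each of the 9 is listed once among the 56980 genes of the count table. The libraries came from 4 male wild-type C57BL/6J mice of an in-house inbred colony, aged 14 weeks, with no other allele and no agent given in the labels. From the bone marrow of each mouse, 100 CD51+ PDGFRa+ cells that were Sca1- and lacked the blood and vessel antigens (CD45-, Ter119- and CD31-) were sorted, and polyadenylated RNA was turned into full-length cDNA by template switching, amplified by PCR and tagmented. All 4 libraries form 1 group, so that levels and differences between genes within a mouse are reported, and no condition was compared.

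CIP/KIP proteins bind complexes of cyclins with cyclin-dependent kinases (CDKs) and block them broadly, whereas INK4 proteins bind Cdk4 and Cdk6 alone and keep the D-type cyclins away. With these kinases held back, the protein made from Rb1 stays bound to E2F transcription factors and the genes of DNA replication remain silent. The p53 protein, made from Trp53, switches on Cdkn1a after stress and DNA damage, and the Cdkn2a and Cdkn2b genes are known for their rise in senescent and aged cells.

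The libraries held between 22738604 and 43545349 counts on genes. Between 16109 and 18907 genes had at least 1 count, with the fewest in mouse 2. Counts were converted to TPM, a level per 1000000 transcripts, which divides each count by the length of the merged exons of the gene and scales every library to 1000000, so that levels of different genes can be set side by side. All 7 marker genes of MSCs and the niche, among them Cxcl12, Lepr and Pdgfra, were above 1 TPM in every mouse, with sums of 1109, 4594, 2357 and 1253 TPM in mice 1 to 4. Cxcl12 made up most of these sums, with 983, 4329, 2224 and 1079 TPM. The 4 osteoblast markers, led by Bglap, summed to between 77792 and 168024 TPM, far above the MSC markers, so the sorted cells carried abundant transcripts of the bone-forming lineage. Ptprc, which encodes the CD45 antigen that was sorted against, had 2, 2, 0 and 50 counts in mice 1 to 4, and 4 of the 8 leukocyte markers were at 0 in every library. The other leukocyte markers were led by the neutrophil genes S100a8, with 142, 0, 4 and 56 counts, and S100a9, with 36, 114, 26 and 0 counts, and the list summed to 15.6, 19.6, 3.22 and 9.53 TPM. The endothelial markers Cdh5 and Kdr were at 0 in every library, and the sum of the 4 endothelial markers reached at most 0.235 TPM. The 6 erythroid markers summed to 4980, 35.0, 1708 and 358 TPM in mice 1 to 4. The 4 adipocyte markers summed to 199, 962, 439 and 234 TPM, and Pparg, the regulator of fat cell formation, had 8, 869, 50 and 0 counts.

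Cdkn1a and Cdkn2d were the highest genes of their families and Cdkn2a was close to absent, so the sequences just before the start sites of these genes are shown. Of the 9 genes, 7 matched the RefSeq promoter table (GRCm38.p6), with 10 windows among 32851. Each sequence holds the 250 bases before an annotated start, 5′ to 3′ on the strand of the gene. Capitals mark GC boxes, the Sp1-type motif GGGCGG on either strand, or, in the first window, the p53 response element. The windows are chr17:29090729-29090978 and chr17:29093519-29093768 on the plus strand for Cdkn1a, chr9:21291210-21291459 on the minus strand for Cdkn2d, and chr4:89294620-89294869 on the minus strand for the upstream start of Cdkn2a.
Cdkn1a upstream start: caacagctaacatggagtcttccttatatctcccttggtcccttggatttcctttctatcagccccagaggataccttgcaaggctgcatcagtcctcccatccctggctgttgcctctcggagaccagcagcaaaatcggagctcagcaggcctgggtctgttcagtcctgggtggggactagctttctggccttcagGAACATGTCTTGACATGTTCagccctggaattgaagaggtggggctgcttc
Cdkn1a downstream start: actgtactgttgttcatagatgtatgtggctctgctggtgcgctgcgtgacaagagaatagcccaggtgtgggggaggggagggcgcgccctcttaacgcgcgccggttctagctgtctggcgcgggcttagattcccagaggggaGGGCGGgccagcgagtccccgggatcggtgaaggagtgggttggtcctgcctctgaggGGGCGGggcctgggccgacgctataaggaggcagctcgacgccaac
Cdkn2d: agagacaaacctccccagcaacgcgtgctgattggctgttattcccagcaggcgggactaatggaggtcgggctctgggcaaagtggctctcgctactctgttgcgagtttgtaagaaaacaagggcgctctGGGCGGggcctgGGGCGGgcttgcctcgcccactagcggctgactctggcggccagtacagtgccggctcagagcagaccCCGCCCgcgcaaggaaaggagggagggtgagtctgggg
Cdkn2a upstream start: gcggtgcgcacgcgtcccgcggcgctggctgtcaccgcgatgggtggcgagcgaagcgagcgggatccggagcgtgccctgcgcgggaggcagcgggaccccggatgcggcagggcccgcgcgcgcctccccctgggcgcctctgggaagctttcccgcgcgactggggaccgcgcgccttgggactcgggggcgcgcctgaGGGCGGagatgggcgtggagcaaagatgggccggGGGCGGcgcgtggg

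The p53 response element, searched for after the windows had been read, was allowed 1 mismatch to its consensus and no spacer, and it reads the same way on both strands. It occurred in 19 of all 32851 windows (0.0578%), and among the 10 windows of the 9 genes it occurred in that of the upstream start of Cdkn1a alone, 51 bases before the start and with 1 mismatch. Of the 23 windows of a list of p53 target genes, 2 held it, those of Ccng1 and Cdkn1a. The downstream start of Cdkn1a lies 2790 bases further on, with 19 CpG dinucleotides and 2 GC boxes in its window, against 2 CpG and no GC box at the upstream start. GC boxes were present in 32.7% of all windows, so their presence singles out none of these genes. The window of Cdkn2d held 3 GC boxes and 16 CpG, and that of Cdkn1b 1 GC box and 28 CpG. The upstream Cdkn2a window, from which the p19Arf transcript starts, held 40 CpG, more than 98.7% of all windows, where the median is 6, and it also held 1 copy of the E2F motif TTTCCCGC, which is present in 0.895% of windows. The p16Ink4a start of Cdkn2a lies 12427 bases downstream, and its window held 7 CpG and no GC box. Which start was used cannot be read from counts per gene.

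Of the 9 genes, 7 passed a median of 1 TPM over the 4 mice, a level reached by 22.9% of all 52125 genes with a length and by 44.2% of the 21922 protein-coding genes. Only Cdkn2a and Cdkn2b fell short of it. Above 1 TPM in every mouse were 5 of the 9, namely Cdkn1a, Cdkn2d, Trp53, Cdkn1b and Rb1, where 30.1% of protein-coding genes were. By median TPM the order was Cdkn1a, Cdkn2d, Trp53, Cdkn1c, Cdkn1b, Rb1, Cdkn2c, Cdkn2a and Cdkn2b, and the medians ran from 349 TPM to 0.

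**Figure D1:**
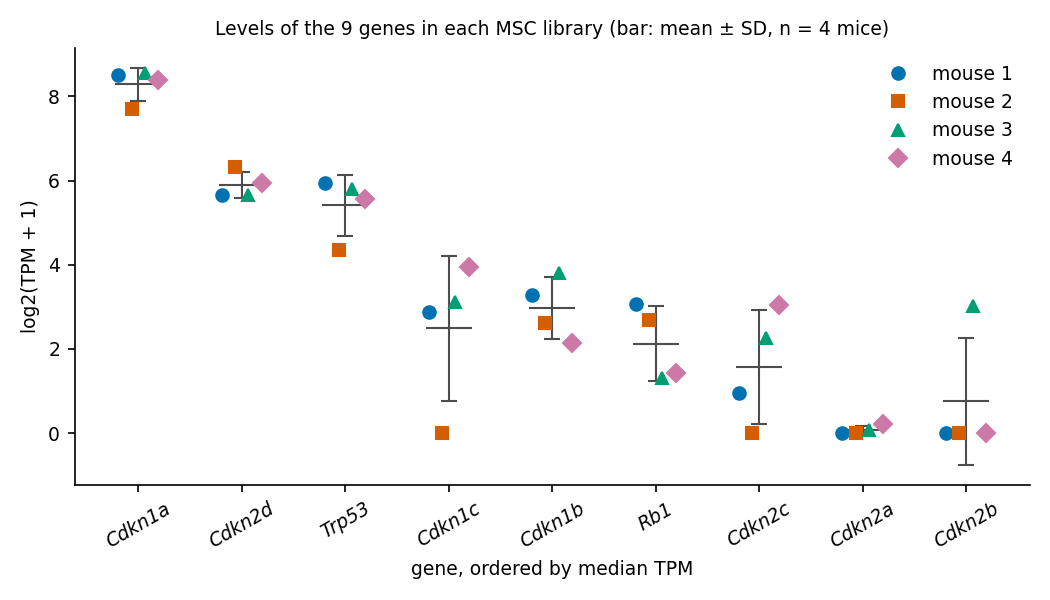
Level of each gene as log2(TPM + 1) in the 4 mice (coloured symbols), with the mean and SD (grey bars, n = 4 mice), ordered by median TPM. Cdkn1a lay above every other gene in all 4 mice, Cdkn1c and Cdkn2c were at 0 in mouse 2, and Cdkn2b was above 0 in mouse 3 alone.

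Within the CIP/KIP family, Cdkn1a, which encodes p21Cip1, the inhibitor that p53 induces, dominated. It had 364, 206, 373 and 333 TPM in mice 1, 2, 3 and 4, from 22774, 8156, 22876 and 12237 counts. Mouse 2 was the lowest and the other mice were within a narrow range, giving 319 ± 77.1 TPM (SD, n = 4). By median it was the 301st gene of those with a length and stood above 98.7% of the protein-coding genes. Its coefficient of variation was 24.2%, close to the median of 24.7% among the 828 protein-coding genes from 100 to 1000 TPM. Counting error of reads alone would give 0.802%. Reads copied by PCR are not independent molecules, so this figure understates the sampling error. The gene lies on chr17:29090976-29100727 (GRCm38, plus strand), and 7.68% of its merged exons overlap an antisense gene without counts.

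Cdkn1b, which encodes p27Kip1, the inhibitor linked to quiescence, was far lower than Cdkn1a. It had 8.79, 5.17, 13.01 and 3.40 TPM in mice 1 to 4, which gives 7.59 ± 4.25 TPM (SD, n = 4). It was present in every mouse and highest in mouse 3, and its coefficient of variation of 56.0% exceeded that of only 23.9% of the protein-coding genes between 1 and 10 TPM. The gene lies on chr6:134920401-134925513 (plus strand).

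Cdkn1c, the imprinted gene of p57Kip2, was missing from the library of mouse 2. It had 6.41, 0, 7.72 and 14.4 TPM in mice 1 to 4, from 230, 0, 272 and 304 counts. The 3 counts taken as the smallest detectable amount equal 0.132 TPM in mouse 2, and mouse 1, the next lowest, had 48.5 times that level. This floor speaks of counting error alone, so the size of the gap in RNA is not known. Such gaps were common in mouse 2, where 27.8% of the 5727 protein-coding genes with a mean between 1 and 10 TPM had fewer than 3 counts, compared with 12.8%, 9.11% and 19.1% in mice 1, 3 and 4. Over the 4 mice the mean was 7.14 ± 5.91 TPM (SD, n = 4), and 4.71 TPM without mouse 4. The gene lies on chr7:143458339-143461050 (minus strand), and 30.7% of its merged exons overlap the antisense gene Gm44732, which had no counts. Unstranded counting leaves out read pairs that touch the exons of both genes, so the level of Cdkn1c may be understated.

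Together the CIP/KIP genes summed to 380, 212, 393 and 351 TPM, and Cdkn1a made up between 94.7% and 97.6% of the sum. In bulk libraries of 100 cells, a low level in every cell and a high level in a few cannot be told apart, nor can fewer cells of a type from less RNA per cell.

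The INK4 family was carried by Cdkn2d, which encodes p19Ink4d. It had 49.8, 78.9, 49.6 and 61.0 TPM in mice 1 to 4, from 1379, 1382, 1350 and 992 counts, and gave 59.8 ± 13.8 TPM (SD, n = 4). Here mouse 2 was the highest, the reverse of Cdkn1a. Its coefficient of variation, 23.0%, was the lowest of the 9 genes and exceeded that of 14.6% of the protein-coding genes between 10 and 100 TPM. The gene lies on chr9:21288410-21291407 (minus strand) and overlaps no exon of another gene.

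Cdkn2c, which encodes p18Ink4c, was low and uneven. It had 0.952, 0, 3.81 and 7.28 TPM in mice 1 to 4, from 45, 0, 177 and 202 counts, with a mean of 3.01 ± 3.27 TPM (SD, n = 4), and 1.59 TPM without mouse 4. Mice 3 and 4 were above the other mice, and in mouse 2 the gene fell under the 0.1004 TPM that 3 counts would give. Its median of 2.38 TPM passed 1 TPM through mice 3 and 4, and it no longer passed when either of them was left out.

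Cdkn2a, the gene of p16Ink4a and p19Arf, had 0, 0, 1 and 2 counts in mice 1 to 4. No library reached the 3 counts that correspond to between 0.145 and 0.248 TPM, so the gene was not detectable at this depth. The transcripts of p16Ink4a and p19Arf share exons on chr4:89274471-89294653 (minus strand), and counts per gene do not separate them. Cdkn2b, which encodes p15Ink4b and is the neighbour of Cdkn2a on chr4:89306299-89311039, had 170 counts in mouse 3 and 0 in the others. Its 7.08 TPM in mouse 3 were 33.9 times the highest floor of the other libraries, 0.209 TPM, a floor that speaks of counting error alone. Detection in exactly 1 mouse applied to 7.46% of the protein-coding genes with a mean between 1 and 10 TPM.

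The sum of the INK4 genes was 50.8, 78.9, 60.6 and 68.4 TPM in mice 1 to 4, and Cdkn2d supplied between 81.9% and 100% of it. The CIP/KIP sum was above the INK4 sum by 2.88, 1.41, 2.68 and 2.34 in log2(TPM + 1) in mice 1 to 4, on average 2.33 ± 0.65 (SD). It was therefore higher in 4 of 4 mice and the difference exceeded its spread. The exact two-sided sign-flip permutation test gave p = 0.125 and adjusted p = 0.208 over 5 planned pairs, where 0.125 is the smallest p that 4 mice can give. Because Cdkn1a and Cdkn2d supply most of these sums, this pair largely repeats the difference between those genes. The genes were chosen with earlier results of these data known, so the difference is given as a description of these libraries. As a ratio of TPM, the CIP/KIP sum was 7.48, 2.68, 6.49 and 5.13 times the INK4 sum. Of the 7 inhibitors together, Cdkn1a accounted for 79.3 ± 5.91% (SD, n = 4).

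**Figure D2:**
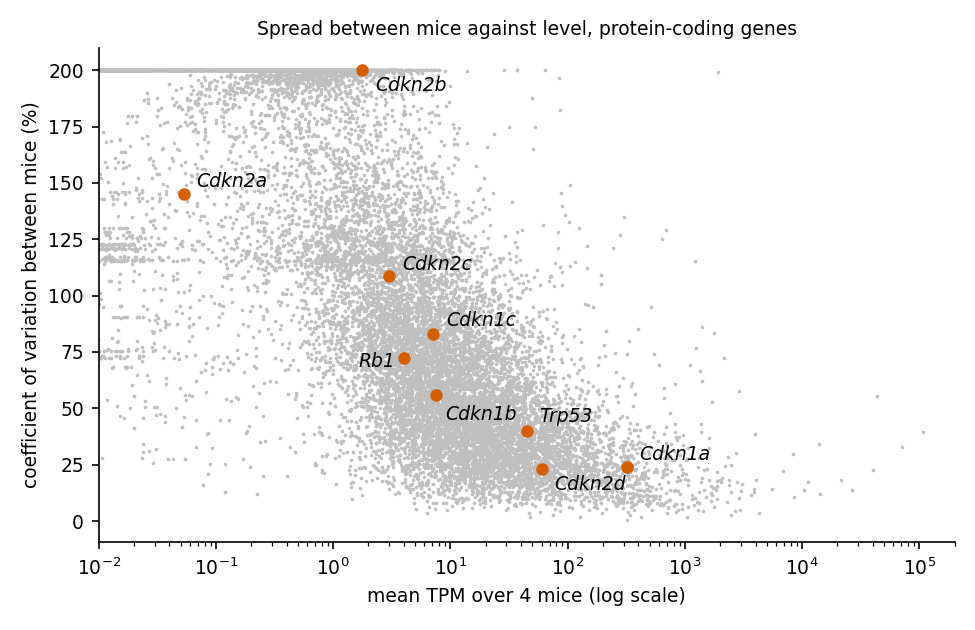
Coefficient of variation between the 4 mice (%) against the mean TPM (log scale) for protein-coding genes (grey points) and the 9 genes (orange). Cdkn1a and Trp53 lie near the middle of genes of similar level, and Cdkn2d is more even than most. Cdkn2b, with 1 library above 0, lies at the upper limit of 200%.

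Trp53 was well expressed. It had 60.0, 19.4, 55.01 and 45.9 TPM in mice 1 to 4, from 4271, 875, 3845 and 1918 counts, and averaged 45.1 ± 18.1 TPM (SD, n = 4). Mouse 2 lay below the others, and the highest library was 3.09 times the lowest. The coefficient of variation of 40.1% was near the median of 44.0% for protein-coding genes between 10 and 100 TPM. The gene lies on chr11:69580359-69591873 (plus strand). Its processed copy Trp53-ps is near-identical to 20.2% of the longest Trp53 transcript, which has 5 exons. The other forms among the 6 transcripts of Trp53 were not compared, so their share is not known. Trp53-ps took between 7 and 23 counts per library. Read pairs that fit both places equally well are left out by unique mapping, so the level of Trp53 may be understated.

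Rb1 separated the mice into a high and a low pair. It had 7.37, 5.47, 1.48 and 1.71 TPM in mice 1 to 4, from 780, 366, 154 and 106 counts, with a mean of 4.01 ± 2.89 TPM (SD, n = 4). Mice 1 and 2 were above mice 3 and 4, and the highest library was 4.97 times the lowest. A coefficient of variation of 72.2% was nevertheless below the median of 84.7% for protein-coding genes between 1 and 10 TPM. Rb1 lies on chr14:73183673-73325822 (minus strand, 27 exons in its longest transcript), and antisense exons of Rcbtb2 and Lpar6 cover 8.11% and 6.78% of its merged exons. Rcbtb2 had between 1374 and 2613 counts and Lpar6 between 1 and 621. Unstranded counting leaves out read pairs that touch exons of Rb1 and of either neighbour, so the level of Rb1 may be understated.

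Each gene was then compared with the next one in the order within each mouse. The order was set by the medians of the same 4 libraries, so a positive difference is largely built in, and the sizes and spreads are given as a description of these libraries. Cdkn1a exceeded Cdkn2d by 2.85, 1.38, 2.88 and 2.43 in log2(TPM + 1) in mice 1 to 4, on average 2.38 ± 0.70 (SD), which is larger than the spread. The p-value was 0.125 and the adjusted p 0.5 over 8 neighbouring pairs in the exact sign-flip permutation test. Trp53 exceeded Cdkn1c by 2.92 ± 1.13 (SD, log2), also in 4 of 4 mice and with the same p-values. Cdkn2c was above Cdkn2a by 1.498 ± 1.26 (SD, log2), again more than the spread, in 3 of 4 mice and at 0 for both in mouse 2, with p = 0.25 and adjusted p = 0.5 in the exact permutation test. This difference fell below its spread without mouse 3 (1.26 ± 1.44) and without mouse 4 (1.05 ± 1.10).

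The other 5 neighbouring pairs differed by less than their spread. Cdkn2d minus Trp53 was 0.49 ± 1.03 (SD, log2) and positive in 2 of 4 mice (exact p = 0.625, adjusted 0.714), and it came to -0.0024 without mouse 2 and 0.74 without mouse 1. Cdkn1c minus Cdkn1b was -0.48 ± 1.82 and positive in 1 of 4 mice, although Cdkn1c has the slightly higher median, 7.07 against 6.98 TPM. Without mouse 2, in which Cdkn1c is at 0, that difference turned to 0.24, and without mouse 4 it was -1.24. Cdkn1b minus Rb1 was 0.84 ± 1.15, positive in 3 of 4 mice, and 0.29 without mouse 3. Rb1 minus Cdkn2c was 0.56 ± 2.16, positive in 2 of 4 mice, and came to 0.041, -0.16, 1.06 and 1.28 without mouse 1, 2, 3 and 4 in turn. Cdkn2a and Cdkn2b differed by -0.68 ± 1.51, which came from mouse 3 alone, and by 0.073 without it.

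**Figure D3:**
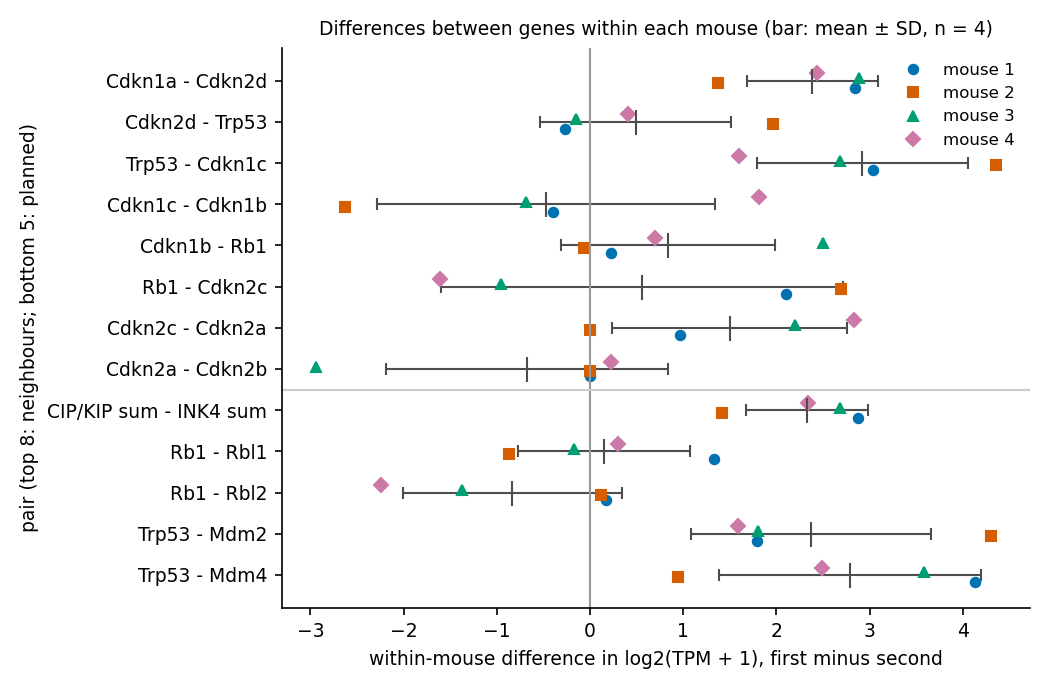
Within-mouse differences in log2(TPM + 1), first gene minus second, for the 8 neighbouring pairs (top) and the 5 planned pairs (bottom), with the mean and SD over 4 mice (grey bars). Cdkn1a over Cdkn2d, Trp53 over Cdkn1c, CIP/KIP over INK4 and Trp53 over Mdm2 and Mdm4 are positive in all 4 mice.

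The targets of the inhibitors were expressed beside them. All 12 listed CDKs and cyclins had a median above 1 TPM, from Cdk4 with 146 TPM to Ccne1 with 1.76 TPM. Above 1 TPM in every mouse were 5 of them. Among protein-coding genes as a whole, 44.2% and 30.1% passed these cutoffs. Cdk4, the kinase of the D-type cyclins, had 185, 106, 202 and 88.0 TPM in mice 1 to 4. The level of Cdkn1a was 1.97, 1.94, 1.84 and 3.79 times that of Cdk4, so it was above this kinase in each mouse and by most in mouse 4. Cdk2, which drives entry into DNA replication with cyclin E, had 8.33, 0.0145, 4.41 and 8.39 TPM and was reduced to 1 count in mouse 2. Cdk6 had between 0.273 and 3.58 TPM. The CIP/KIP sum was between 1.90 and 3.56 times the sum of Cdk2, Cdk4 and Cdk6. These are ratios of transcripts and give no ratio of inhibitor to kinase protein. The D-type cyclins Ccnd1, Ccnd2 and Ccnd3 summed to 64.7, 45.2, 90.3 and 68.9 TPM.

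Proliferation transcripts varied widely between the same libraries. Of 17 listed genes, 13 had a median above 1 TPM, against 44.2% of protein-coding genes. Above 1 TPM in every mouse were only 3 of the 17, against 30.1% of protein-coding genes. Pcna was highest at 44.1 TPM and Bub1 lowest at 0. The list summed to 287, 99.9, 220 and 120 TPM in mice 1 to 4. At least 3 counts were found for 16, 6, 17 and 15 of these genes, so most were missing from mouse 2, and Mki67 had 16.2, 0, 12.6 and 6.14 TPM. The erythroid sums given above have the same order of mice, highest in mouse 1 and lowest in mouse 2. The adipocyte and MSC marker sums were highest in mouse 2, the latter mainly through Cxcl12. The MSC markers Prrx1 and Itgav were highest in mouse 1. The part of these lists in the levels of the inhibitors was not tested.

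Genes that act on the inhibitor proteins or their loci were read from the same libraries. Of 7 genes for turnover and transcription of the KIP inhibitors, 6 had a median above 1 TPM, against 44.2% of protein-coding genes. The list ran from Cul1, a scaffold of the SCF ubiquitin ligase, with 72.3 TPM, down to the transcription factor gene Foxo4 with 0.140 TPM. Skp2, the receptor that delivers p27Kip1 to this ligase, had 4.52, 4.49, 6.45 and 3.74 TPM. Of 6 Polycomb genes known to silence the INK4 locus, 5 had a median above 1 TPM, against 44.2% of protein-coding genes. Their medians ran from 9.03 TPM for Eed to 0 for Cbx7. Bmi1, a repressor of Cdkn2a, had 6.57, 23.5, 2.99 and 8.25 TPM and was present in every mouse.

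Among the partners of Rb1, 11 of 16 genes of the RB family, the E2F factors and the DREAM complex had a median above 1 TPM. The share of protein-coding genes was 44.2%. The medians of the list ran from 35.9 TPM for Lin37 to 0 for E2f7. Rbl1, which encodes the Rb relative p107, had 2.32, 10.8, 1.79 and 1.19 TPM in mice 1 to 4 and was highest in mouse 2. Rbl2, which encodes p130, had 6.46, 4.97, 5.44 and 11.8 TPM and was highest in mouse 4. Neither relative was separated from Rb1 by more than the spread. Rb1 minus Rbl1 was 0.15 ± 0.93 (SD, log2), positive in 2 of 4 mice, with p = 0.75 and adjusted p = 0.75 in the exact permutation test, and the difference was -0.25, 0.49, 0.25 and 0.098 without mouse 1, 2, 3 and 4 in turn. Rb1 minus Rbl2 was -0.83 ± 1.18, positive in 2 of 4 mice, with p = 0.5 and adjusted p = 0.625 in the same exact test, and it was -0.36 without mouse 4.

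**Figure D4:**
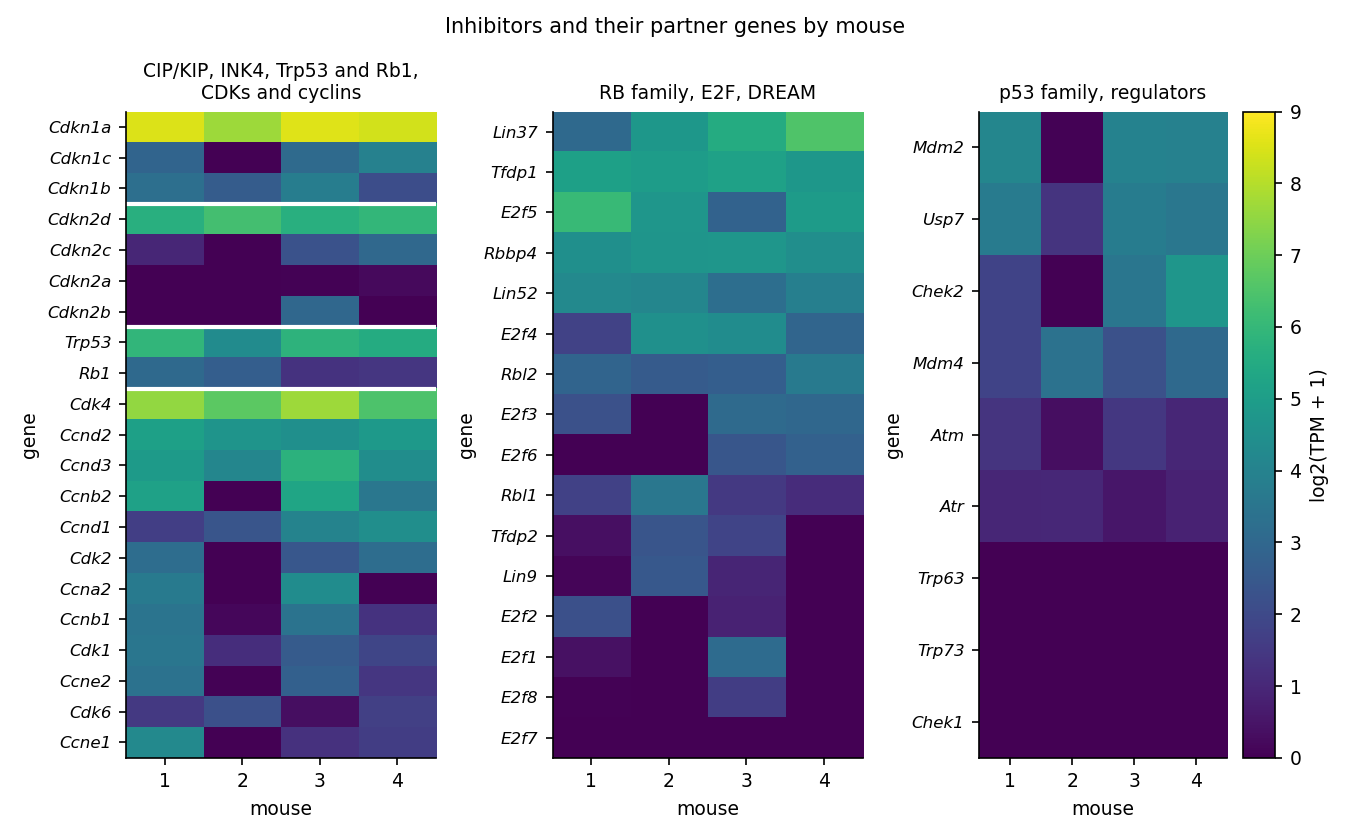
Levels as log2(TPM + 1) (colour) in mice 1 to 4 for the 9 genes with the CDKs and cyclins (left), the RB family, E2F and DREAM genes (middle) and the p53 family and its regulators (right). Cdkn1a and Cdk4 are the brightest rows, and mouse 2 is dark for Cdkn1c, Cdkn2c, Cdk2 and Mdm2.

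Around Trp53, 5 of 9 family members and regulators had a median above 1 TPM, not far from the 44.2% of protein-coding genes. Its relatives Trp63 and Trp73 and the checkpoint kinase gene Chek1 had 0 counts in every library. Mdm2, the ubiquitin ligase that removes p53 and is itself a p53 target, had 16.6, 0.0354, 15.1 and 14.5 TPM, from 1488, 2, 1323 and 764 counts. Mice 1, 3 and 4 were nearly equal, and the library of mouse 2 lacked the transcript almost wholly. In that library, 4.17% of the 4055 protein-coding genes with a mean between 10 and 100 TPM had fewer than 3 counts. Mdm4, the relative of Mdm2 that holds p53 inactive, had 2.47, 9.61, 3.66 and 7.38 TPM and was highest in mouse 2. Trp53 was above Mdm2 by 2.37 ± 1.29 and above Mdm4 by 2.79 ± 1.41 (SD, log2), each in 4 of 4 mice and by more than the spread, with p = 0.125 and adjusted p = 0.208 for both in the exact permutation test. Without gene lengths, Trp53 minus Mdm4 was 1.14 ± 1.53 (SD, log2), less than its spread, with p = 0.375 in the exact permutation test.

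Of 23 p53 target genes, Cdkn1a itself included, 16 had a median above 1 TPM, against 44.2% of protein-coding genes. Above it in every mouse were 10 of them, against 30.1% of protein-coding genes. Cdkn1a was the highest of the 23, and Tnfrsf10b, the gene of a death receptor, was at a median of 0. Bax, which opens the mitochondrial membrane in apoptosis, had 65.2, 42.4, 89.2 and 50.8 TPM. Btg2, an antiproliferative gene, had 67.5, 16.5, 121 and 29.2 TPM. Ccng1, the other gene with the p53 element in its window, had 49.7, 45.4, 28.1 and 26.6 TPM and did not share the order of Cdkn1a, which was lowest in mouse 2. Relative to Trp53, the level of Cdkn1a was 6.07, 10.6, 6.77 and 7.26 times as high in mice 1 to 4, with the highest ratio in mouse 2, where both were lowest.

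Cells were released from bone by enzyme digestion before sorting, and transcripts that such handling is known to raise were abundant. The 10 listed genes, with Fos highest at a median of 1578 TPM, summed to 2295, 3784, 5269 and 2250 TPM in mice 1 to 4. Their sum was highest in mouse 3, as Cdkn1a was, but mouse 2, where Cdkn1a was lowest, had the second highest. The part of handling in the level of Cdkn1a was not tested.

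Genes with the most similar levels were sought for the 3 highest genes as those protein-coding genes whose log2(TPM + 1) stayed closest in all 4 mice. For Cdkn1a they were Tpm4, Npm1 and Calu, which differed from it by at most 0.17, 0.20 and 0.21. App, Gxylt2 and Ubxn4 were nearest to Cdkn2d, within 0.22, 0.24 and 0.24, and Arcn1, Polr2f and Pigp to Trp53, within 0.21, 0.22 and 0.22. With 4 libraries, such likeness describes levels only.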

How the data were processed

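RNA-seq libraries of 100 sorted MSCs from each of 4 mice were analysed. The authors deposited raw counts per Ensembl gene. Per the labels and methods they aligned read pairs to GRCm39 with STAR 2.7.10 and counted unique pairs on exons with featureCounts (Subread 1.6.5), unstranded by default. Other libraries of the study were not analysed here.

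Counts were divided by merged exon length (GENCODE M21, GRCm38, joined by Ensembl identifier, no coordinates converted) and scaled to 1000000 per library over the 52125 genes with a length. The 4855 genes without one were left out, and the rest held between 96.1% and 98.2% of counts. Where the exons of a gene differ between both annotations, its TPM is scaled wrongly. Depths of 22738604 to 43545349 counts put 3 counts, taken as the floor, at 0.0689 to 0.132 counts when a library is scaled to 1000000. These floors speak of counting error alone, because reads copied by PCR are not independent molecules. Differences between genes were taken within a mouse on log2(TPM + 1), which understates differences of low genes, and tested by exact two-sided sign-flip permutation over mice with Benjamini-Hochberg adjustment over the 8 neighbouring and the 5 planned pairs. BLAST 2.17.0 was used to find near-identical transcripts (95% identity, 100 bases). Python 3.11.15, numpy 2.4.6, pandas 2.3.3 and edgeR 4.0.16 (TMM factors) were used, and the code was tested on simulated data.

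The genes named are the 9 genes, the highest and lowest gene of each partner list, the genes of the planned pairs and the 3 nearest genes of the 3 highest. Cdk2, Cdk4, Cdk6, the D-type cyclins, Mki67, Skp2, Bmi1, Trp63, Trp73, Chek1, Bax, Btg2, Ccng1 and the markers were named for their roles after their values had been seen. The genes and the lists were chosen with earlier results of these data known. The alternatives were another length, no length, other denominators, TMM factors, the median, other cutoffs, another pseudocount and leaving out each mouse.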

Additional observations from a re-analysis of the deposited data

Results flagged for a closer look

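Of 40 values checked over the 4 mice, 5 had a library whose gap to the nearest other, divided by the whole range, was above Dixon's critical value, where chance gives about 1 in 20, or 2 of 40. Cdkn2b had a gap of 1, with 7.08 TPM in mouse 3 and 0 in the others. The difference between Cdkn2a and Cdkn2b, which rests on the same library, had a gap of 0.930. The difference between Trp53 and Mdm2 had a gap of 0.923, with 4.30 in mouse 2 against 1.59 to 1.80 in the others on the log2(TPM + 1) scale. The summed TPM of the RB family, E2F and DREAM genes had a gap of 0.832, with 213 TPM in mouse 4 against 165 to 173 TPM. The number of genes detected had a gap of 0.920, with 16109 in mouse 2 against 18683 to 18907.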

How the results depend on the processing

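Of 130 values of the 13 pair differences under 10 alternatives, 124 kept their direction. A factor common to a library cancels within a mouse, apart from the pseudocount. TMM factors and other denominators could therefore hardly turn a difference. In the exact test p stayed at or above 0.125, the smallest that 4 mice can give. Cdkn2d minus Trp53 turned to -0.84 without gene lengths. Leaving out each mouse moved it between -0.0024 and 0.74, Cdkn1c minus Cdkn1b between -1.24 and 0.24, Rb1 minus Cdkn2c between -0.16 and 1.28, Cdkn2a minus Cdkn2b between -0.98 and 0.073 and Rb1 minus Rbl1 between -0.25 and 0.49. Without changing sign, Cdkn1b minus Rb1 ranged from 0.29 to 1.14 and Rb1 minus Rbl2 from -1.17 to -0.36. With the longest transcript as length, Rb1 minus Rbl2 was -1.05 ± 1.19 (SD), less than its spread, with p = 0.125 in the exact test. Of 90 values of the gene means, 81 stayed within 1 SD. The median over mice and leaving out a mouse cannot move a mean of 4 values by 1 SD. Those settings could not fail, and all 9 values that moved came from the other settings. Without the 10 highest genes in the denominator, Cdkn1a rose to 504 TPM, Cdkn2d to 95.9 TPM and Trp53 to 70.8 TPM, and with the longest transcript as length Cdkn1a came to 426 TPM. The other 5 came without lengths, which is another scale. The number of genes past the cutoff was 7, and 5 with a cutoff of 5 TPM, with 1 TPM in every mouse, or with a minimum of 10 counts in each, and 6 without mouse 3 or without mouse 4. TMM factors moved no gene mean beyond its spread and left the number of genes past the cutoff at 7. All libraries belong to 1 group, so no groups could be paired by mouse, and the differences between genes are already within a mouse. With 4 mice the sign-flip test cannot give a p below 0.125, and levels under 3 counts were not detectable.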
